A study of Homo sapiens with 32 samples.

Results

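Genomic imprinting leaves 1 parental copy of a gene active and the other silent, and 10 imprinted genes with H19 at their head are described here across 4 human T-cell lines treated with azacitidine, romidepsin or both. The members were chosen by symbol, namely H19, IGF2, MEG3, PEG3, MEST, PLAGL1, NNAT, SNRPN, DLK1 and PHLDA2, and all 10 were among the 25559 symbols of the count tables. Of these, 5 (H19, MEST, PLAGL1, NNAT and PHLDA2) passed the filter on low counts and were among the 17801 genes tested. MEG3, PEG3 and DLK1 had too few reads to be tested, and IGF2 and SNRPN were listed at 0 in all 32 libraries.

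The lines were PF382 (T-cell acute lymphoblastic leukemia), TLOm1 (adult T-cell leukemia), HH and H9 (both cutaneous T-cell lymphoma), and each gave 8 libraries after 96 h in culture. The groups were azacitidine with romidepsin, azacitidine alone at 3 doses, romidepsin alone, and untreated cells. PF382 and TLOm1 received azacitidine at 125, 250 or 500 nM, while HH and H9 received 50, 125 or 250 nM, once every day, alone or in the combinations. For romidepsin, added once at the start, the dose was 1.25 nM for PF382, and TLOm1 and H9 received 1 nM. In HH the labels give 1.25 nM in the combinations and 1 nM alone. Each line had 1 library per condition, so the 4 lines were the replicates (n = 4) in comparisons over lines. All p-values rest on a spread pooled over all 32 libraries. Effects within a line came from 1 line each, with its libraries at different doses in place of replicates. Total counts ran from 16175077 to 32496676 per library, so that 3 counts, used as the floor below which a level was not resolved, were 0.0923 to 0.186 CPM (counts over the library total, times 1000000).

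Imprints are methylation marks set on control regions in the germ line of 1 parent and copied at each cell division by the maintenance methyltransferase. Azacitidine is a cytidine analogue that traps DNA methyltransferases on DNA, and romidepsin inhibits histone deacetylases. At the H19 and IGF2 locus an unmethylated control region binds the insulator protein CTCF, which directs shared enhancers to the noncoding RNA H19 and away from IGF2, and many members of the class, H19 included, are strongly expressed in fetal and placental tissue and silenced later in most adult tissues.

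The T-cell character of the lines was checked on 10 markers, whose summed level was between 1198 and 2337 CPM in all 32 libraries. Several defining markers were at or near 0 in untreated cells of 1 or more lines. CD7 had 6 counts in TLOm1 and 2 in HH, and LCK, a T-cell receptor kinase, had 0 counts in HH and 33 in TLOm1 (1.34 CPM). TLOm1 also had 18 counts of CD3D and 3 of CD3G, chains of the receptor complex, 11 of CD5 and 8 of CD28, and H9 had 12 of CD2.

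The sequence upstream of the members whose reads moved is shown because the methyltransferases that azacitidine traps act on cytosines next to guanines (CpG). Promoter windows of 300 bases (250 before and 50 after an annotated start) were matched by symbol to RefSeq on GRCh38.p14 for 5 of the 10 members, namely H19, MEG3, MEST, PLAGL1 and SNRPN. For each of 4 of these the window with the most CpG is printed 5′ to 3′ on the strand of the gene, with every CpG (CG, a motif that reads the same on both strands) in capitals.
H19, chr11:2001217-2001516, minus strand: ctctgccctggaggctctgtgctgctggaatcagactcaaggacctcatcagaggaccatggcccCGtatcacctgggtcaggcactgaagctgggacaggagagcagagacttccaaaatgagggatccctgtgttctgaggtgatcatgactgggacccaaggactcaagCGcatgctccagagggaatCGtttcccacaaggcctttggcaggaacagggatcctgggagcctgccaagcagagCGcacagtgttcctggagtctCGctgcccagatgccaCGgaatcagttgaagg
MEG3, chr14:100825858-100826157, plus strand: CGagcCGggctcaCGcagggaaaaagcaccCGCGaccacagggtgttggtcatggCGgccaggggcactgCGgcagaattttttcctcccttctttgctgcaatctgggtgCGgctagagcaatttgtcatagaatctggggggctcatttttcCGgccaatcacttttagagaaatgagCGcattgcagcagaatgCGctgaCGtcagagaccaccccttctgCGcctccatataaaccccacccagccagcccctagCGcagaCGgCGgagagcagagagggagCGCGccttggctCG
MEST, chr7:130491835-130492134, plus strand: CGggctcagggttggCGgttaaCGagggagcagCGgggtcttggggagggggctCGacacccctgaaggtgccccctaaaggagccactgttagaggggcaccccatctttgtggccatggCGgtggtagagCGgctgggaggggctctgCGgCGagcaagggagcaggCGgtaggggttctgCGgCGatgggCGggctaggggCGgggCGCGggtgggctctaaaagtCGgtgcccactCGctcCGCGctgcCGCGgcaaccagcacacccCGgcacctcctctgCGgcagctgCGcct
PLAGL1, chr6:144008210-144008509, minus strand: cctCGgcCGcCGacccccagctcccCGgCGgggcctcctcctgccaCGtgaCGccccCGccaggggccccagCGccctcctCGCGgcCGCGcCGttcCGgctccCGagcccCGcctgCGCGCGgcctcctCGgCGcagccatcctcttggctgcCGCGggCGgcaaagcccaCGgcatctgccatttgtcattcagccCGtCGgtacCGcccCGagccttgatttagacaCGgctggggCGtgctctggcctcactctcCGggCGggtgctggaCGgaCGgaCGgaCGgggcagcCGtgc
The H19 window held 6 CpG, the MEG3 window 19, the MEST window 25 and the PLAGL1 window 39. Among all 35116 windows of the same length the median was 14, and 66.3% held at least as many as the H19 window, 42.9% as the MEG3 window, 32.03% as the MEST window and 8.71% as the PLAGL1 window. A gene with several windows can rank higher here because its richest was taken. The other windows held 2, 3, 3 and 31 CpG for PLAGL1, 13, 16, 22 and 22 for MEST and 17 and 18 for MEG3, while H19 had no other. These counts describe the letters only. Methylation was not measured, and the counts of reads were made on another build, so no read was placed in these windows. Which start the H19 reads came from is thus not known, and the 6 CpG are not read as those of the promoter in use.

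H19 is a noncoding RNA made from the maternal copy. It was at or near 0 in every line without azacitidine and reached a substantial level in a single line, HH. In HH cells without romidepsin it had 0, 17, 458 and 1078 counts at 0, 50, 125 and 250 nM azacitidine, which were 0, 1.05, 14.1 and 43.5 CPM. Against the floor of 3 counts in the untreated library, H19 was at least 8.52-fold higher at 50 nM, at least 114-fold higher at 125 nM and at least 352-fold higher at 250 nM. In bulk RNA such a level can come from many cells with few transcripts or few cells with many, and these cannot be told apart.

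With romidepsin the HH series was lower at each azacitidine dose. H19 had 10 counts with romidepsin and 17 without it at 50 nM, a ratio of 0.398 (95% exact Poisson interval 0.163 to 0.921). At 125 nM it had 49 counts with romidepsin and 458 without it, a ratio of 0.162 (0.118 to 0.218), and at 250 nM 84 counts with romidepsin and 1078 without it, a ratio of 0.0868 (0.0687 to 0.108). The intervals cover counting error only and do not overlap between the lowest dose and the highest.

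In the other lines H19 stayed between 0 and 17 counts. PF382 had 0, 1, 1 and 1 counts with romidepsin and 0, 0, 0 and 1 without it at 0, 125, 250 and 500 nM azacitidine. TLOm1 had 1, 0, 0 and 12 counts with romidepsin and 0, 0, 2 and 3 without it at the same doses. H9 had 2, 3, 2 and 17 counts with romidepsin and 1, 3, 7 and 11 without it at 0, 50, 125 and 250 nM. PF382 was thus at or under the floor in every library, and in TLOm1 and H9 the highest count came from the highest azacitidine dose with romidepsin. In that TLOm1 library the ratio to the library without romidepsin was 4.88 (1.32 to 27.0), and in that H9 library it was 1.93 (0.851 to 4.55), an interval that holds 1. H19 reached 10 counts in 9 of 32 libraries, all 9 with azacitidine, so it passed the filter only through the groups where it was high.

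**Figure D1:**
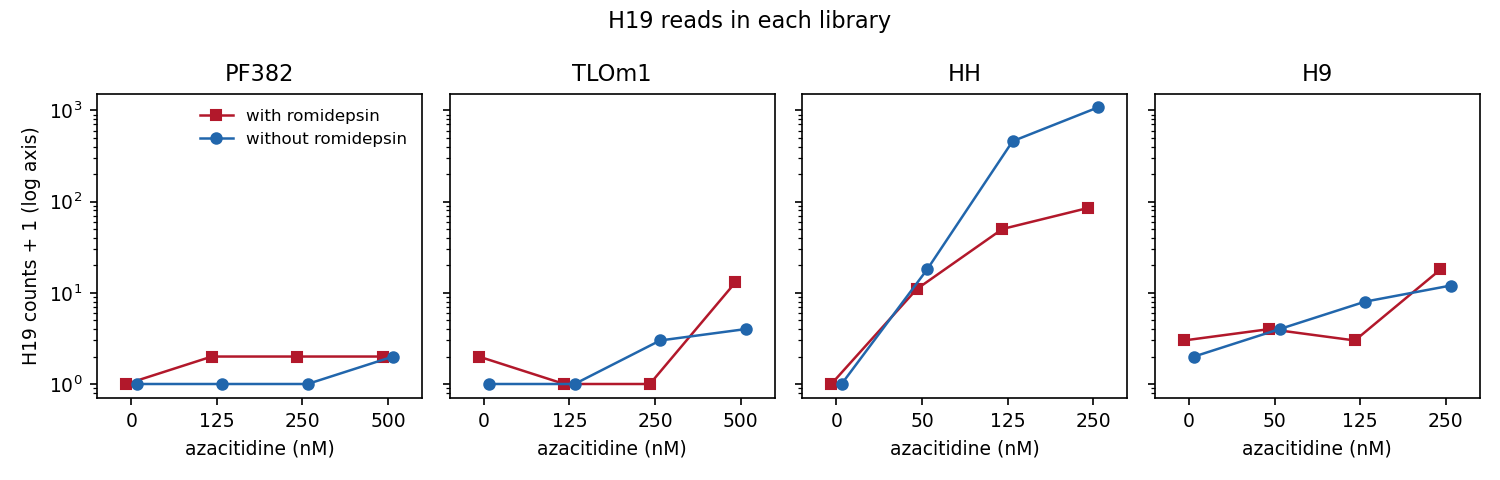
H19 reads in each of the 32 libraries, as counts + 1 on a log axis, against the azacitidine dose in nM, with 1 panel per line, red squares with romidepsin and blue circles without it. In HH the libraries without romidepsin reach 1078 counts and those with romidepsin 84, while PF382 never exceeds 1 count.

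The question of what each drug did over the 4 lines was put to edgeR's quasi-likelihood F test with Benjamini-Hochberg adjustment over all genes tested, and every adjusted p below is from that test unless another tool is named. A gene was called at an adjusted p under 0.05. At 250 nM azacitidine without romidepsin H19 had 0, 2, 1078 and 11 counts in PF382, TLOm1, HH and H9, against 0, 0, 0 and 1 in the untreated libraries. The fitted log2 change was 8.61 ± 1.47 (SE, adjusted p = 0.00103). Counts were higher in 3 of 4 lines, of which TLOm1, with 2 counts against 0, was under the floor. H19 was the only member called, 1 of 5 tested, beside 5.99% of all genes tested (685 higher and 381 lower). Since H19 was tested only through the azacitidine libraries where it was high, this count is a description. The same holds for the calls of H19 below. Fitted changes of H19 start from libraries at 0, depend on the prior count and are no bound. The call ended without HH (log2 change 3.21, adjusted p = 0.182). On the compared libraries alone H19 did not pass the filter, at 125 or 250 nM or in the combination, and 0, 0 and 22 of all genes were called in these comparisons. With no filter the adjusted p of H19 was 0.0276 at 125 nM, 0.00113 at 250 nM and 0.00526 in the combination.

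At 125 nM azacitidine H19 had 0, 0, 458 and 7 counts in the same order of lines, against 0, 0, 0 and 1 in the untreated libraries, with a fitted log2 change of 7.29 ± 1.51 (SE, adjusted p = 0.0245), higher in 2 of 4 lines. This was again the only member called, beside 0.461% of all genes tested. That call ended without HH (2.33, adjusted p = 0.693), without PF382 (7.51, adjusted p = 0.0892) and without TLOm1 (7.56, adjusted p = 0.103), and with DESeq2 (3.52, adjusted p = 0.385) and limma-voom (4.82, adjusted p = 0.249).

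With romidepsin and 250 nM azacitidine H19 had 1, 0, 84 and 17 counts in PF382, TLOm1, HH and H9, against 0, 0, 0 and 1 in untreated cells. The fitted log2 change was 6.75 ± 1.58 (SE, adjusted p = 0.0043). Counts were higher in 3 of 4 lines, of which PF382, with 1 count against 0, was under the floor. H19 was the only 1 of the 5 members called, beside 23.0% of all genes tested. Without HH the change was 3.77 (adjusted p = 0.0451), and with DESeq2 it was 3.65 (adjusted p = 0.0724) and with limma-voom 4.14 (adjusted p = 0.0800). Leaving out TLOm1 added PLAGL1 to the calls (log2 change 0.40, adjusted p = 0.0230).

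Set against 250 nM azacitidine alone, the combination gave no call among the 5 members, beside 5.67% of all genes tested. Of the 5, 1 (H19) had an unadjusted p under 0.05, and DESeq2 and limma-voom called none. For H19 the fitted log2 difference was -1.87 ± 0.88 (SE, adjusted p = 0.217), and without HH it was 0.56 (adjusted p = 0.805). H19 was higher in PF382 and H9 and lower in TLOm1 and HH, with PF382 and TLOm1 under the floor in both libraries. Romidepsin alone against untreated cells gave no call among the members, beside 0.0169% of all genes tested (3 genes), and 0 of the 5 members had an unadjusted p under 0.05; DESeq2 and limma-voom called 9 genes each and no member. The departure from additivity of the drugs at 250 nM gave no call among all genes tested (0.0%, with 596 genes at an unadjusted p under 0.05, and no call with DESeq2 or limma-voom), and for H19 it was -3.46 ± 2.62 on the log2 scale (SE, adjusted p = 1.0).

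H19 and MEST were the members called for the azacitidine dose, where H19 was again tested only through azacitidine libraries in which it was high. The slope was fitted on all libraries, with a level for each line and an azacitidine term shared by the lines. The lines received different doses, so differences between lines in their response to azacitidine also enter the slope. It is thus not a slope within lines alone. For each doubling of the dose, H19 rose by 1.72 ± 0.30 on the log2 scale (SE, adjusted p = 0.000201) and MEST by 0.39 ± 0.09 (SE, adjusted p = 0.00281). These were 2 of the 5 members, beside 23.7% of all genes tested (2413 higher and 1798 lower). The H19 slope was 1.25 without HH (adjusted p = 0.00462). With each line left out in turn, the MEST slope lay between 0.25 and 0.71, with adjusted p between 0.00123 and 0.0451. The slope of 0.71 was the fit without H9. A fit with an azacitidine level for each line was 1 of 12 alternatives for the slope. Over these 12 the H19 slope lay between 0.63 and 1.94 and the MEST slope between -0.29 and 0.71.

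MEST encodes a hydrolase-like protein of mesoderm and is made from the paternal copy. Its untreated level was highest in H9 and lowest in HH, with 53.8 CPM (95% exact Poisson interval 51.0 to 56.6) in H9, 10.2 CPM (8.91 to 11.6) in PF382, 0.284 CPM (0.114 to 0.586) in TLOm1 and 0.247 CPM (0.0906 to 0.537) in HH. The TLOm1 and HH levels did not differ beyond their counting error.

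In PF382 MEST was at 10.5, 13.8, 18.2 and 23.6 CPM with romidepsin and at 10.2, 14.6, 21.0 and 25.3 CPM without it at 0, 125, 250 and 500 nM azacitidine. In H9 it was at 51.8, 58.7, 61.5 and 68.0 CPM with romidepsin and at 53.8, 58.6, 59.9 and 69.5 CPM without it at 0, 50, 125 and 250 nM. In both lines every library with azacitidine lay above both libraries without it. The highest dose over untreated gave a ratio of 2.49 in PF382 (95% exact Poisson interval 2.14 to 2.90) and 1.29 in H9 (1.21 to 1.39).

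TLOm1 had 12, 7, 10 and 35 MEST counts with romidepsin and 7, 3, 28 and 39 without it at 0, 125, 250 and 500 nM, where the libraries with and without azacitidine overlapped. HH had between 3 and 12 MEST counts in all 8 libraries. At 250 nM azacitidine MEST had a log2 change of 0.82 ± 0.29 against untreated cells (SE, adjusted p = 0.0998), and 0.61 ± 0.30 in the combination against untreated cells (SE, adjusted p = 0.143). Neither passed the test. The azacitidine effect per line, from 6 libraries with azacitidine at any dose and 2 without it, was 0.86 ± 0.34 in PF382 (SE, adjusted p = 0.12), 1.10 ± 0.65 in TLOm1 (adjusted p = 0.238), -0.27 ± 0.82 in HH (adjusted p = 0.907) and 0.23 ± 0.31 in H9 (adjusted p = 0.745). Without the 125 nM libraries the TLOm1 change was called (1.60, adjusted p = 0.0148).

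PLAGL1 encodes a zinc finger transcription factor that restrains cell growth, made from the paternal copy. It moved in opposite directions with azacitidine in PF382 and TLOm1. Its untreated level was 138 CPM in H9 (95% exact Poisson interval 133 to 142), 25.5 CPM in HH (23.6 to 27.6), 16.4 CPM in PF382 (14.8 to 18.2) and 1.26 CPM in TLOm1 (0.856 to 1.79), and no neighbours in this order overlapped within counting error.

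In PF382 PLAGL1 had 21.2, 22.9 and 23.9 CPM with azacitidine and romidepsin and 23.8, 24.9 and 26.8 CPM with azacitidine alone at 125, 250 and 500 nM, against 16.3 CPM with romidepsin alone and 16.4 CPM in untreated cells. All 6 libraries with azacitidine lay above both without it. The fitted log2 change with azacitidine was 0.50 ± 0.13 (SE, adjusted p = 0.0149), and PLAGL1 was 1 of 5 members called in PF382, beside 8.33% of all genes tested.

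In TLOm1 PLAGL1 had 20, 3 and 10 counts with azacitidine and romidepsin and 18, 11 and 13 with azacitidine alone at 125, 250 and 500 nM, against 25 with romidepsin alone and 31 in untreated cells. All 6 libraries with azacitidine lay below both without it, at a level of at most 0.771 CPM. The fitted log2 change was -1.15 ± 0.24 (SE, adjusted p = 0.00245), and PLAGL1 was again the only member called, beside 18.7% of all genes tested. The azacitidine effect on PLAGL1 differed between the 4 lines (F = 12.7, adjusted p = 0.00309), 1 of 5 members beside 10.7% of all genes tested.

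The other azacitidine effects per line gave 1 call. In HH H19 was called (log2 change 11.15 ± 2.34, SE, adjusted p = 0.00672, no bound), beside 5.87% of all genes tested, and the call ended with limma-voom (7.68, adjusted p = 0.0749). PLAGL1 in HH had a log2 change of 0.27 ± 0.12 (SE, adjusted p = 0.195), which DESeq2 called (0.28, adjusted p = 0.00995). In H9 no member was called, beside 5.86% of all genes tested, and none had an unadjusted p under 0.05 or a call with DESeq2 or limma-voom. The H19 effect of azacitidine was not shown to differ between the lines (adjusted p = 0.429), although its counts were far higher in HH.

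Romidepsin effects per line, from 4 libraries with romidepsin and 4 without it at matched azacitidine doses, were called for members in HH alone. HH had 3 of 5 members called, beside 27.7% of all genes tested. H19 fell by 2.90 ± 0.33 on the log2 scale there (SE, adjusted p = 5.08e-06), and all alternatives gave between -3.09 and -2.22. No member was called in PF382, beside 30.7% of all genes tested, in TLOm1, beside 32.6%, or in H9, beside 4.47%. Members at an unadjusted p under 0.05 numbered 1 in PF382, 0 in TLOm1 and 1 in H9. DESeq2 and limma-voom called no member in PF382 or TLOm1, and limma-voom called PHLDA2 in H9 (0.35, adjusted p = 0.0441). The romidepsin effect differed between lines for H19 (adjusted p = 0.00176), PHLDA2 (0.0143) and PLAGL1 (0.0164), 3 of 5 members beside 33.0% of all genes tested. Beside these HH values stands the difference in romidepsin dose, 1.25 nM in the combinations and 1 nM alone, whose part was not tested.

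PLAGL1 was higher with romidepsin in HH. It had 35.3, 39.2, 38.8 and 39.6 CPM with romidepsin and 25.5, 33.8, 34.6 and 35.5 CPM without it at 0, 50, 125 and 250 nM azacitidine, a log2 change of 0.25 ± 0.07 (SE, adjusted p = 0.00945), higher in 4 of 4 pairs. In H9 the log2 change was 0.07 ± 0.06 (SE, adjusted p = 0.624), in PF382 -0.15 ± 0.07 (adjusted p = 0.118) and in TLOm1 -0.26 ± 0.21 (adjusted p = 0.48).

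PHLDA2 encodes a pleckstrin homology protein that restrains placental growth and is made from the maternal copy. Its untreated level was 81.2 CPM in TLOm1 (95% exact Poisson interval 77.7 to 84.9), 24.2 CPM in H9 (22.3 to 26.1) and 6.70 CPM in HH (5.71 to 7.82). PF382 had 0 to 4 counts in its 8 libraries, at or near the floor.

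In HH PHLDA2 was at 3.24, 4.23, 5.45 and 7.23 CPM with romidepsin and at 6.70, 5.69, 6.12 and 8.59 CPM without it at 0, 50, 125 and 250 nM azacitidine, lower with romidepsin in 4 of 4 pairs. Its log2 change there was -0.45 ± 0.15 (SE, adjusted p = 0.0293). The call rested on the pair without azacitidine, whose ratio was 0.484 (95% exact Poisson interval 0.361 to 0.642): without it the change was -0.25 (adjusted p = 0.263). It also ended without the pair at 50 nM (-0.43, adjusted p = 0.0836), without the pair at 250 nM (-0.50, adjusted p = 0.064) and with limma-voom (-0.43, adjusted p = 0.128).

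In H9 PHLDA2 had 32.6, 36.4, 42.4 and 44.2 CPM with romidepsin and 24.2, 33.9, 36.6 and 25.5 CPM without it at the same doses, a log2 change of 0.36 ± 0.11 (SE, adjusted p = 0.0722), higher in 4 of 4 pairs. In TLOm1 it was between 59.1 and 86.0 CPM in all 8 libraries, with a romidepsin effect of 0.04 ± 0.11 (SE, adjusted p = 0.804).

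**Figure D2:**
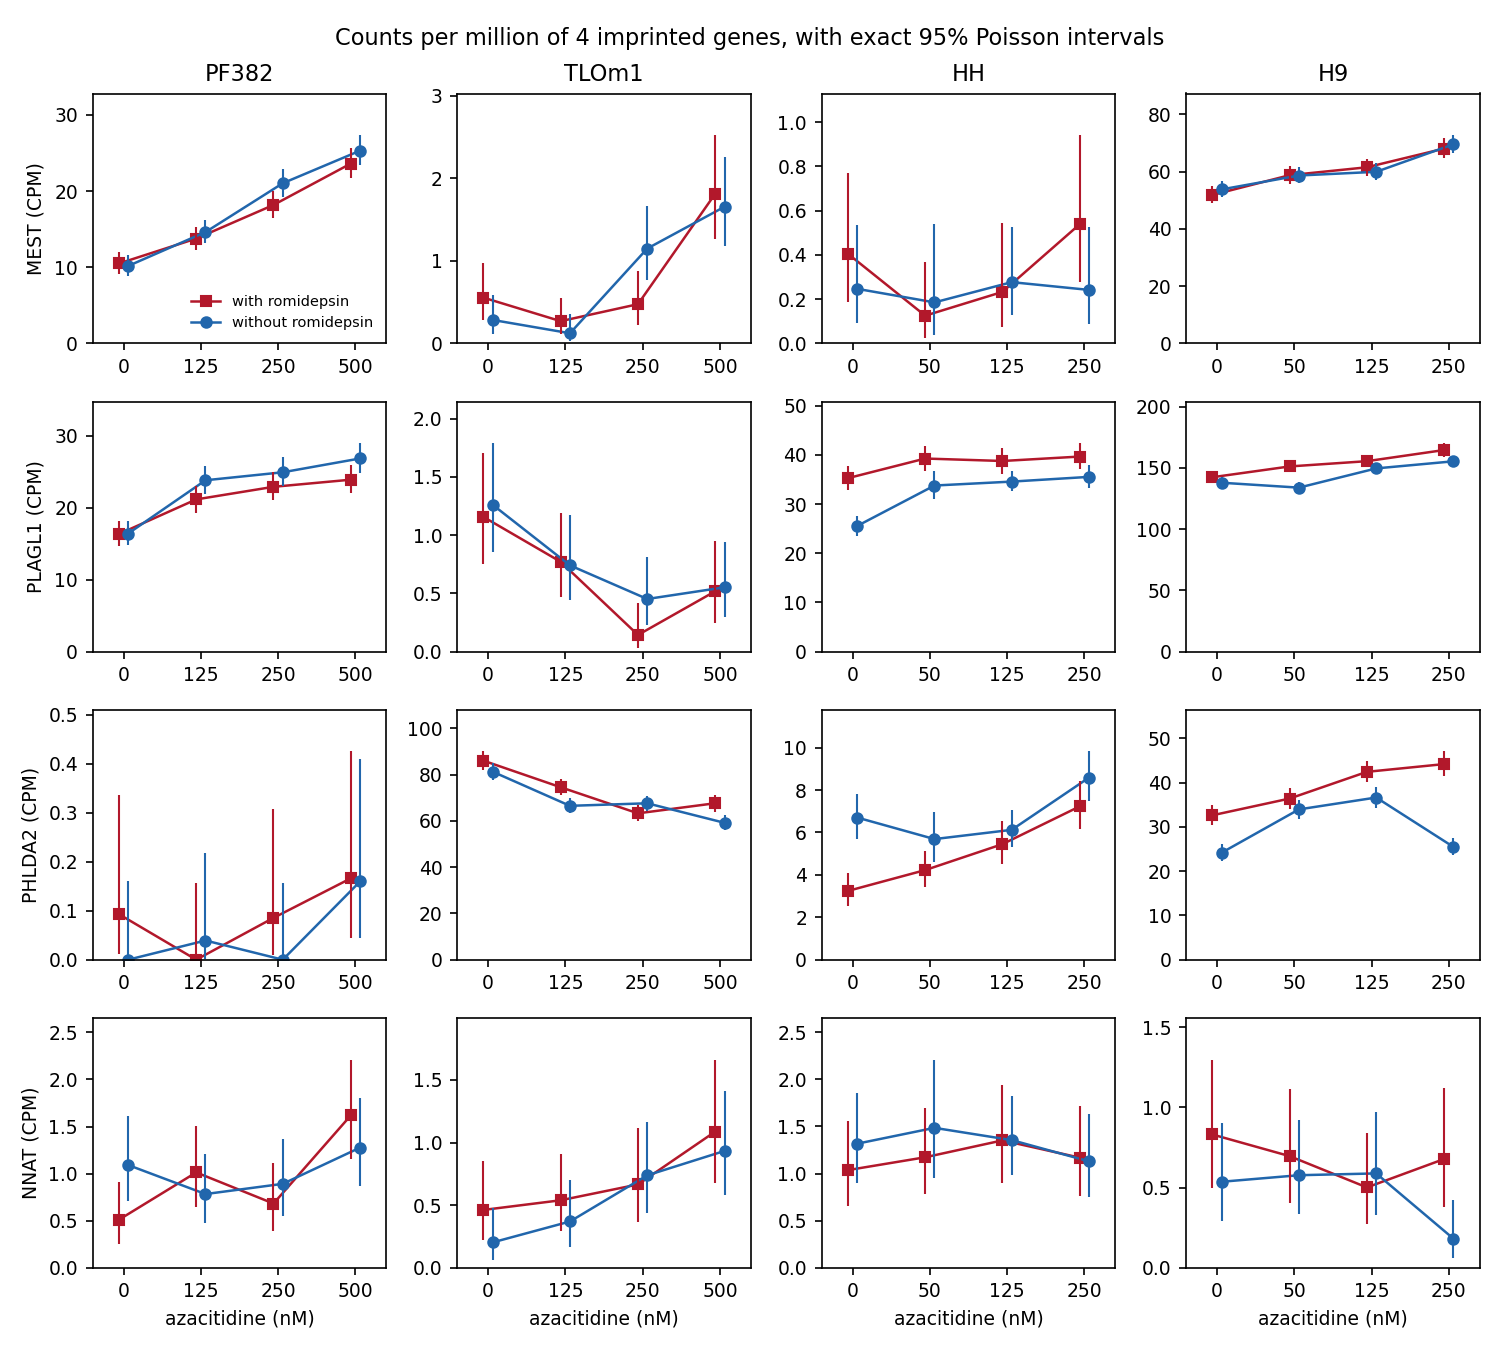
Levels in CPM of MEST, PLAGL1, PHLDA2 and NNAT (rows) in each line (columns) against the azacitidine dose in nM, red squares with romidepsin and blue circles without it, with vertical bars for exact 95% Poisson intervals of 1 library and axes that start at 0. MEST is higher at higher doses in PF382 and H9, PLAGL1 is higher with azacitidine in PF382 and lower in TLOm1, and PHLDA2 lies lower with romidepsin in HH.

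NNAT encodes a small membrane proteolipid of developing neurons and is made from the paternal copy. It was low in all lines, between 0.182 and 1.62 CPM, and was called in no comparison as fitted over all libraries. In TLOm1 it had 10, 14, 14 and 21 counts with romidepsin and 5, 9, 18 and 22 without it at 0, 125, 250 and 500 nM azacitidine, a log2 change with azacitidine of 1.14 ± 0.47 (SE, adjusted p = 0.0859). Without the 125 nM libraries it was 1.38 and called (adjusted p = 0.0283). The other line effects of azacitidine on NNAT were 0.35 ± 0.41 in PF382 (SE), 0.10 ± 0.38 in HH and -0.35 ± 0.41 in H9. NNAT lies inside an intron of BLCAP, which had 702 to 2011 counts per library, and how the authors counted reads shared by overlapping genes is not given in the sources used here.

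**Figure D3:**
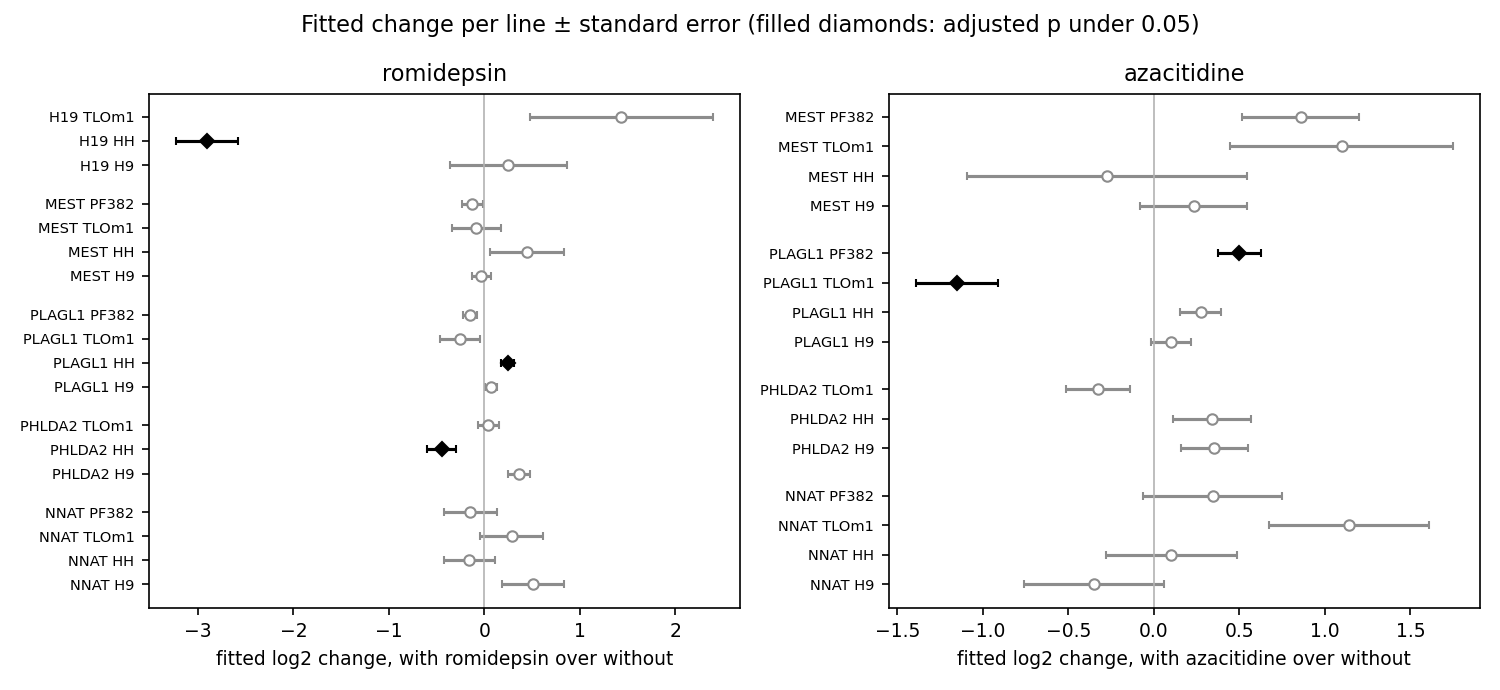
Fitted log2 change of the tested members per line, with romidepsin over without (left) and with azacitidine over without (right), with bars of 1 standard error and filled diamonds at an adjusted p under 0.05. H19 in HH stands at -2.90 for romidepsin, and PLAGL1 at 0.50 in PF382 and -1.15 in TLOm1 for azacitidine; H19 is left out on the right and H19 and PHLDA2 of PF382 on both sides, since they were at or near 0 counts without the drug.

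The remaining 5 members gave almost no reads. MEG3, a maternally expressed noncoding RNA of the DLK1 cluster, had 0, 0, 1 and 22 counts with romidepsin and 0, 2, 0 and 5 without it in TLOm1 at 0, 125, 250 and 500 nM azacitidine. The library with both drugs at 500 nM, at 1.14 CPM, stood 5.37-fold above the library with 500 nM azacitidine alone (95% exact Poisson interval 1.98 to 18.2), and it also held the highest H19 count of that line. Outside TLOm1 MEG3 had 1 count in 24 libraries.

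PEG3, a paternally expressed zinc finger protein, had 0, 0, 3 and 2 counts with romidepsin and 0, 0, 1 and 3 without it in TLOm1 and was at 0 elsewhere. DLK1, a transmembrane ligand of the Notch family that is made from the paternal copy of the cluster, had 3 counts in all, each in another TLOm1 library. IGF2, a fetal growth factor, and SNRPN, a splicing protein of the Prader-Willi region, were listed at 0 in every library. Their overlapping partners INS-IGF2 and SNURF were also listed at 0, and IPW, a noncoding RNA of the same region as SNRPN, had 150 to 917 counts, so a listing at 0 is not read here as a measure of SNRPN or IGF2 RNA.

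Overlapping and neighbouring genes stood as follows. MIR675, whose precursor lies within H19, was listed at 0 in all 32 libraries. MRPL23, a ribosomal protein gene near H19, had 772 to 2004 counts per library. HYMAI, which overlaps PLAGL1, had 0 to 50 counts, and MESTIT1, which lies antisense to MEST, had 0 to 4. Libraries were made with a stranded kit, but the strand setting of the counting is not given, so reads of such pairs cannot be told apart.

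Outside the members, 41 further imprinted genes were listed, of which 27 were tested. At 250 nM azacitidine 3 of the 27 were called, beside 5.99% of all genes tested. NLRP2, a NOD-like receptor (log2 change 2.99, adjusted p = 0.0124) and IPW (0.53, adjusted p = 0.0477) rose and ZDBF2 (-0.60, adjusted p = 0.0235) fell, with a median of 0.03 over the 27 and 0.02 over all genes tested. In the combination at 250 nM 4 of the 27 were called, beside 23.0% of all genes tested. NLRP2 (4.97, adjusted p = 2.71e-05), MAGEL2 of the Prader-Willi region (5.34, adjusted p = 0.0245) and GRB10, an adaptor that restrains insulin signalling (1.35, adjusted p = 0.0324), rose and ZNF597 (-0.69, adjusted p = 0.017) fell, with a median of 0.03 over the 27 and 0.04 over all genes tested. NLRP2 had 4, 70, 191 and 2 counts in PF382, TLOm1, HH and H9 in the combination, against 1, 0, 7 and 0 in untreated cells, so its fitted change is no bound either. MAGEL2 rested on PF382, where it had 0, 3, 25 and 99 counts with romidepsin and 0, 0, 4 and 12 without it at 0, 125, 250 and 500 nM, and it was at 0 in every library of HH and H9.

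Per doubling of the azacitidine dose, NLRP2 (2.25), MAGEL2 (2.07), GRB10 (0.50) and BLCAP (0.15) rose and NAP1L5 (-0.08) fell, with adjusted p between 3.21e-09 and 0.0457. These were 5 of the 27, beside 23.7% of all genes tested. With romidepsin 11 of the 27 were called in PF382 (10 rose and 1 fell), beside 30.7% of all genes tested, and 8 in TLOm1 (6 rose and 2 fell), beside 32.6%. In HH 7 were called (3 rose and 4 fell), beside 27.7%, and in H9 2 (1 rose and 1 fell), beside 4.47%. With azacitidine 5 were called in PF382 (4 rose and 1 fell), beside 8.33%, 3 in TLOm1 (2 rose and 1 fell), beside 18.7%, 1 in HH, beside 5.87%, and 0 in H9, beside 5.86%, where 5 of the 27 had an unadjusted p under 0.05. No enrichment over all genes is read from these shares. The single gene in HH was FAM50B, named after its values were seen, with a log2 change of 1.30 ± 0.30 (SE, adjusted p = 0.00926). Its level in HH was no lower with romidepsin, at 7.28, 12.02 and 19.3 CPM with it and 7.11, 9.60 and 15.6 CPM without it at 50, 125 and 250 nM.

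Factors that read or keep imprints were listed as a second group, of which 12 were tested. At 250 nM azacitidine 3 of the 12 rose and none fell, beside 5.99% of all genes tested, namely CTCFL (5.81, adjusted p = 4.88e-05), the testis paralogue of CTCF, UHRF1 (0.48, adjusted p = 0.0271), which guides the maintenance methyltransferase, and TRIM28 (0.23, adjusted p = 0.0301), a corepressor of zinc finger proteins. In the combination 8 of the 12 were called, beside 23.0% of all genes tested. CTCFL (6.22, adjusted p = 6.73e-06) and TRIM28 rose, and ARID4A, a chromatin protein (-0.40, adjusted p = 7.04e-05), CTCF itself (-0.34, adjusted p = 0.000231), the histone methyltransferase SETDB1 (-0.34, adjusted p = 0.00213), SMCHD1 (-0.28, adjusted p = 0.014), ATRX and ARID4B fell. With dose CTCFL was the single call (2.06 per doubling, adjusted p = 7.55e-09), beside 23.7% of all genes tested. CTCFL had 54, 63, 77 and 1 counts in PF382, TLOm1, HH and H9 at 250 nM azacitidine, against 1, 2, 0 and 0 in untreated cells. It had 115 counts with romidepsin and 77 without it in HH at 250 nM azacitidine, while H9 had 0 or 1 count in all 8 libraries. The median log2 change of the 12 was 0.01 at 250 nM azacitidine and -0.10 in the combination, against 0.02 and 0.04 over all genes tested.

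The insulin-like growth factor axis, in which IGF2 acts, had 13 tested genes. At 250 nM azacitidine IGFBP4, a binding protein of the growth factors, was the single call (2.72, adjusted p = 0.00612), beside 5.99% of all genes tested. In the combination 5 of the 13 were called, all higher, beside 23.0% of all genes tested. They were IGFBP4 (2.76, adjusted p = 0.00172), the RNA-binding proteins IGF2BP2 (2.93, adjusted p = 0.00286) and IGF2BP1 (1.66, adjusted p = 0.0131), the insulin receptor INSR (2.01, adjusted p = 0.0196) and IGFBP6 (1.05, adjusted p = 0.0233). With dose 8 of the 13 were called, all higher, beside 23.7% of all genes tested. The 5 of smallest adjusted p were IGF2R, the receptor that clears IGF2 (0.13 per doubling), IGF2BP2 (0.78), IGFBP3 (1.80), IGF1R (0.13) and INSR (0.66), with adjusted p between 0.00158 and 0.0152. In HH and H9 the fits gave no usable estimate for IGFBP3 with either drug, mostly without a standard error. This is not read as a measured absence of change. The azacitidine effect on IGFBP3 was 0.59 ± 1.56 in PF382 and 6.75 ± 2.81 in TLOm1 (SE), neither called. The median log2 change of the 13 was 0.32 at 250 nM azacitidine and 0.48 in the combination. With azacitidine 2 of the 13 were called in H9, beside 5.86% of all genes tested, and 2 in PF382, beside 8.33%. In each of these lines 1 rose and 1 fell. IRS1 rose in H9 (0.92, adjusted p = 0.0149) and IGFBP4 in PF382 (2.62, adjusted p = 0.023). IGFBP2 fell in H9 and IGFBP5 in PF382. In TLOm1 3 rose, beside 18.7%, in HH 2 rose, beside 5.87%, and none fell in either. All genes named here were picked after their values were seen. IGFBP2 in H9 had 761.4, 374.4 and 152.5 CPM with azacitidine and romidepsin and 1020.0, 553.1 and 147.2 CPM with azacitidine alone at 50, 125 and 250 nM, against 2434.0 CPM with romidepsin alone and 1968.0 CPM in untreated cells, a log2 change of -2.17 ± 0.49 (SE, adjusted p = 0.0104). IGFBP5 fell in PF382 by 2.04 ± 0.45 on the log2 scale (SE, adjusted p = 0.00627). At 250 nM over the 4 lines IGFBP2 had -2.18 (adjusted p = 0.0723) and IGFBP5 -2.10 (adjusted p = 0.0705). With romidepsin in HH 5 of the 13 were called, 3 higher and 2 lower, beside 27.7% of all genes tested. IGF2BP2 (3.40), INSR (2.49) and IGFBP6 (1.12) rose. IGFBP4, also named after its values were seen, was 1 of the 2 that fell. It had 8.69, 26.1, 47.2 and 47.9 CPM with romidepsin and 21.9, 52.5, 106.5 and 147.6 CPM without it at 0, 50, 125 and 250 nM, a log2 change of -1.29 ± 0.17 (SE, adjusted p = 1.99e-05). These gene lists were drawn up with earlier results of these data known.

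The genes nearest to H19 over the 32 libraries were found on log2 CPM after taking off the mean of each line, by the root mean square difference to H19. They were PLXNB3, a semaphorin receptor (1.02), LOC100507651 (1.07), EVPL, an envoplakin of the epithelial envelope (1.09), CCNA1, a cyclin of the male germ line (1.13) and CTF1, a cytokine (1.16), against a median of 1.95 over 17800 genes. H19 itself had a root mean square of 1.92 about its line means, which is the distance of a gene that did not vary, so the median is close to that of a flat gene. In HH PLXNB3 had 20, 80, 222 and 259 counts with romidepsin and 16, 141, 1718 and 2367 without it at 0, 50, 125 and 250 nM azacitidine. CCNA1 had 4, 6, 34 and 63 with romidepsin and 5, 34, 616 and 1645 without it. At 250 nM LOC100507651 had 59 counts with romidepsin and 37 without it. The genes were chosen for their nearness over these same libraries, HH included, so a pattern shared with H19 follows from the choice and is a description.

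**Figure D4:**
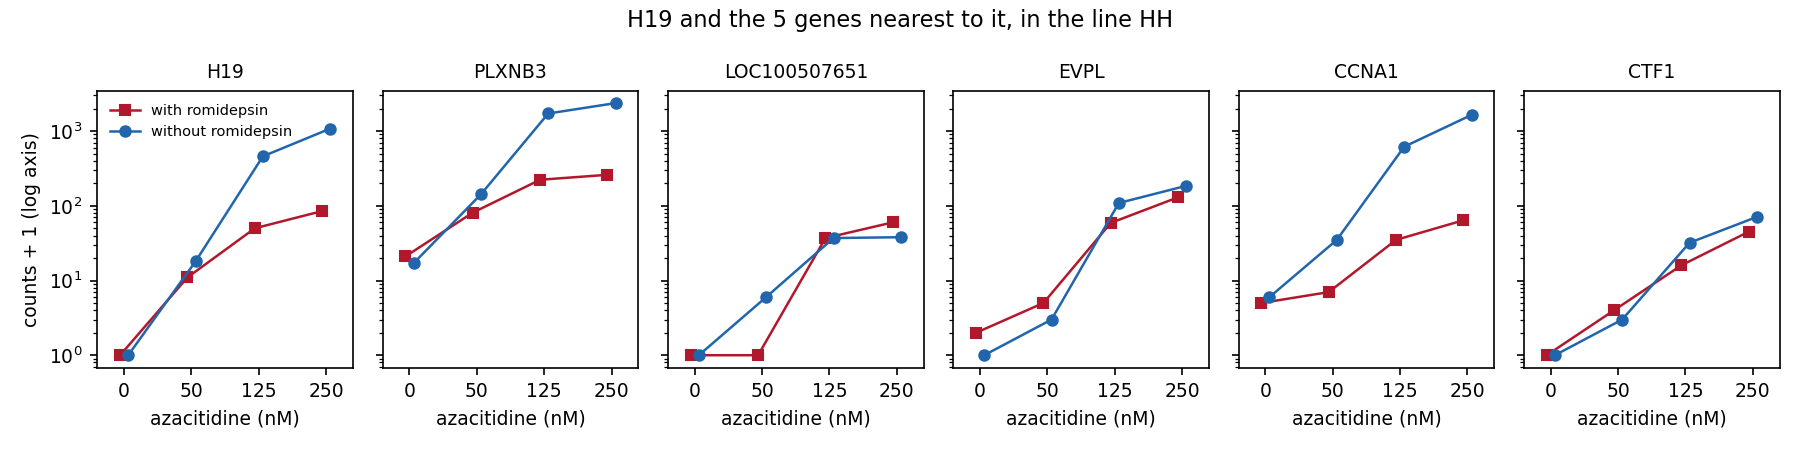
Counts + 1 on a log axis of H19 and the 5 genes nearest to it in HH against the azacitidine dose in nM, red squares with romidepsin and blue circles without it. H19, PLXNB3 and CCNA1 separate by romidepsin at 125 and 250 nM, while EVPL and CTF1 stay close, at 129 and 44 counts with romidepsin and 184 and 70 without it at 250 nM.

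Markers of other cell types in which H19 is high were read beside the HH values. The 6 markers of trophoblast and fetal liver summed to between 0.460 and 1.17 CPM in the 8 HH libraries, and 4 of the 6 had any read. CGA had 9 to 25 counts per library, CGB, AFP and ALB had at most 3, and PSG1 and HSD3B1 were at 0 in all 8. The 5 skeletal muscle markers summed to between 0.495 and 3.55 CPM. CKM had 2 to 70 counts per library, ACTA1 1 to 13 and DES 0 to 5, and MYOD1 and MYOG were at 0 in all 8. The 6 fibroblast markers summed to between 0.617 CPM, in the untreated library, and 8.67 CPM, and all 6 had a read in some library. The part of these marker lists in the H19 result was not tested.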

How the data were processed

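RNA from 32 cultures of 4 established T-cell lines was sequenced on a NextSeq 500 from TruSeq Stranded mRNA libraries, per the labels' protocols, which name poly(A) RNA as well as depletion of ribosomal RNA. Deposited were raw counts for each gene symbol, which were used unchanged. STAR, DESeq2, limma and the build GRCh37.p2 are named in the submitters' processing notes, with no version or role. The sources used here do not give the counter, its annotation or its strand setting.

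Counts were fitted with edgeR 4.0.16 in R 4.3.3 (quasi-likelihood F test, TMM scaling, robust dispersions, Benjamini-Hochberg adjustment over 17801 genes kept by filterByExpr with a minimum count of 10 and a minimum total of 15; threshold 0.05). The first model had 10 treatment groups and a term for the line (19 residual degrees of freedom). The dose slope had cell line, each drug, their product and the log2 dose (24). Line effects of romidepsin had every line and azacitidine dose as a level (12), and those of azacitidine every line with and without romidepsin (20). Standard errors are the fitted change over the root of F. Lines were kept as a block, since libraries of a line correlated between 0.847 and 0.966 after group means were removed (60 pairs). Alternatives were RLE scaling, no filter, a minimum count of 50, DESeq2 1.42.0, limma-voom (limma 3.58.1), each line or dose level left out, no block, the compared libraries alone, doses as ranks, and 1 model for the slope chosen after seeing the data. The code was tested on simulated data.

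CPM are counts over the library total. Poisson and Poisson-ratio intervals are exact (95%, scipy 1.17.1) and cover counting error only, as reads carry no molecular identifiers. All 10 members were named; of the further imprinted genes, the called ones of smallest adjusted p (at most 5) were named for 250 nM, the combination and the slope, and likewise for the other lists, where further calls are named without values. The members and lists were chosen with earlier results of these data known. Whether cultures were separate is not given. Doses in titles of combinations carry no unit and were read as nM.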

Additional observations from a re-analysis of the deposited data

Results flagged for a closer look

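PLAGL1 in TLOm1 stood far from the other lines in the combination at 250 nM against untreated cells. Its log2 CPM change there was -2.84 (3 counts, against 31 in untreated cells), while it was 0.43 in PF382, 0.60 in HH and 0.21 in H9. Chance alone marks about 1 in 20 groups of this kind. Each of the 5 tested members was screened in several comparisons, and the 3 counts are at the floor. This single flag is thus a description.

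The romidepsin effect differed between the 4 lines for H19 (edgeR, adjusted p = 0.00176). On the log2 scale it was -2.90 ± 0.33 in HH, 1.22 ± 1.58 in PF382, 1.44 ± 0.96 in TLOm1 and 0.25 ± 0.61 in H9 (SE). Of these only HH was called, and PF382 had at most 1 count of H19 per library. The romidepsin effect also differed for PHLDA2 (adjusted p = 0.0143), with -0.45 in HH and 0.36 in H9, and for PLAGL1 (adjusted p = 0.0164), with 0.25 in HH and -0.15 in PF382. The azacitidine effect differed for PLAGL1 (adjusted p = 0.00309), with 0.50 in PF382 and -1.15 in TLOm1.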

How the results depend on the processing

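Of 156 recomputed counts of called members, 136 stayed within 1.5 times the reported count. Many of these were counts of 0 that stayed at 0, so the share does not measure how stable the calls were. With no line block the count was 0 at 125 nM, at 250 nM, in the combination and for the dose slope, where MEST turned to -0.29. With the compared libraries alone it was 0 at 125 nM, at 250 nM and in the combination, since H19 no longer passed the filter. It was 0 with DESeq2 and limma-voom at 125 nM and in the combination. In HH with azacitidine it was 2 with DESeq2 and 0 with limma-voom, and in H9 with romidepsin 1 with limma-voom. Leaving out 1 line gave 0 to 1 at 125 nM and at 250 nM, 1 to 2 in the combination and -3.17 to 0.56 for H19 in the combination against azacitidine. Leaving out 1 dose level gave 1 to 3 with azacitidine in TLOm1, -0.64 to 2.20 for H19 with romidepsin in TLOm1, -0.56 to 0.79 for H19 with romidepsin in H9, and -0.032 to 2.91 for H19 with azacitidine in TLOm1. The cause was not tested.

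Counts over all genes moved by more than 1.5 times as follows. Romidepsin against untreated called 3 genes, 0 without PF382, without HH or with no line block, and 9 with DESeq2 and limma-voom. Against 82 genes at 125 nM, 1066 at 250 nM, 4089 in the combination and 1010 in the combination against azacitidine, the fit with no line block called 0, 1, 5 and 0, and the compared libraries alone 0, 0, 22 and 0. Leaving out 1 line called 20 to 51, 446 to 678, as few as 2588, and 202 to 633. The slope called 4211 genes, 816 with no line block and 2028 without TLOm1. DESeq2 called 191 genes at 125 nM, and 1684, 1770 and 3523 in place of 1045 (azacitidine in HH), 1044 (in H9) and 1904 (unequal lines). Leaving out 1 dose level called as few as 3065 in place of 5473 (romidepsin in PF382), 3595 in place of 5808 (TLOm1) and 287 in place of 796 (H9), and 758 to 2243 in place of 1483 (azacitidine in PF382), 1978 to 5289 in place of 3329 (TLOm1), 505 to 2016 (HH) and 359 to 1995 (H9). Depth limits the members under 3 counts, where a level cannot be resolved.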
